A study of Mus musculus with 7 samples.

Results

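A set of 10 genes whose transcripts are best known from organs beside the cortex were followed through all 7 libraries of an RNA sequencing study of the mouse prefrontal cortex. Among the 43626 gene identifiers in the table, these 10 are Ttr, Kl, Trpv4, Prlr, Folr1, Aqp1, Otx2 and Clic6, listed as choroid plexus transcripts (8 genes), and Gh and Prl, listed as pituitary transcripts (2 genes). They were taken by matching the table's Ensembl identifiers to these symbols, and the symbols themselves had been selected on their normalized counts in these same libraries. Their levels and fold changes are therefore given as a description, without a test, and the rule has no threshold that would put a gene just inside or just outside it.

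The libraries came from frozen prefrontal cortex. All mice were C57BL/6J males, 8 weeks old. Of the 7, 4 are from hDISC1AA/+ mice and 3 from wild-type (WT) mice, and no treatment is named for either genotype. The series compares the genotypes for DISC1, a scaffold protein of developing neurons whose phosphorylation the title concerns. The "/+" of the genotype marks heterozygous carriers, and the labels do not spell out how the hDISC1AA allele was made, so it is called by its label. The hDISC1AA/+ libraries are replicates 1, 3 and 4 and a library whose column number matches no sample title, called the unnumbered hDISC1AA/+ library. Replicate numbers only name libraries, and the labels do not say that each library came from a separate mouse, so the spread between them may in part be technical.

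The choroid plexus is a frond of epithelium and vessels inside the brain ventricles that secretes cerebrospinal fluid and carries hormones and vitamins between blood and brain. Its epithelial cells are known for very abundant transthyretin mRNA, and their identity depends on the transcription factor OTX2. The anterior pituitary lies below the brain and holds separate cell types for separate hormones, among them somatotrophs for growth hormone and lactotrophs for prolactin, which share the transcription factor POU1F1, and corticotrophs, which make proopiomelanocortin with the help of TBX19.

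In the deposited values 2 patterns stand out among these 10 genes. Ttr was high in hDISC1AA/+ replicate 1 alone, at 18.3 times the next library. The other choroid plexus genes among the 10 had no value of that size in it. By normalized count Folr1 and Otx2 were also highest there, on 13 and 8 reads, and the rest were highest in other libraries. Gh and Prl were read together in the unnumbered library and in replicates 3 and 4 of hDISC1AA/+, and had no read in hDISC1AA/+ replicate 1 or in any WT library. The 10 genes thus did not move together, and for none of the 10 were the values of all hDISC1AA/+ libraries on one side of all WT values, a separation shown by 890 of the 17670 genes tested across the table (5.04%).

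To show the gene starts of the pituitary hormones that the results turn on, the 250 bases before the annotated start of Prl (chr13:27057320-27057569, plus strand) and of Pomc, the corticotroph hormone gene described below (chr12:3954695-3954944, plus strand), are given 5′ to 3′ from RefSeq on GRCm38.p6. Capitals mark matches, on either strand, to TATNCAT, a motif of POU1F1 where N is any base, or to TATAAA, the TATA box.
Prl: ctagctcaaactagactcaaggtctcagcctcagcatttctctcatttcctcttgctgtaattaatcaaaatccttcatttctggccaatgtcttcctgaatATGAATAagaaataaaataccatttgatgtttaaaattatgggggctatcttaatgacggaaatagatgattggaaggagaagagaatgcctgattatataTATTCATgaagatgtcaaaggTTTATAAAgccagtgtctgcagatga
Pomc: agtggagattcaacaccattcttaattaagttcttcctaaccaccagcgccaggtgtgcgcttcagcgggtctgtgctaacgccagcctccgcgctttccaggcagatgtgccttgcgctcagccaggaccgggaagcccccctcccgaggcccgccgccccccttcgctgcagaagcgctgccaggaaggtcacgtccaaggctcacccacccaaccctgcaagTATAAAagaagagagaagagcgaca
In the Prl sequence TATTCAT starts 47 bases before the gene start, and ATGAATA, its form on the opposite strand, 148 bases before it. The TATA box match starts 24 bases before the start of Prl and overlaps an opposite-strand match, TTTATA, at 26 bases, and the match of Pomc starts 25 bases before its start. The Pomc sequence holds no TATNCAT. Among 32851 windows of 250 bases before annotated starts, 7.92% hold TATNCAT and 12.4% hold TATAAA on either strand. The motif TAATCC, bound by OTX homeodomain proteins, is in 6.25% of these windows and in neither of the printed ones. The RefSeq promoter table holds 6 of the 10 genes, namely Kl, Trpv4, Prlr, Aqp1, Otx2 and Prl, and also Pomc.

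The libraries held 33512557 to 36005116 reads assigned to genes in hDISC1AA/+, and 63845254, 34572903 and 34682070 in WT replicates 1, 2 and 3. Values below are normalized counts, which are read counts divided by the size factor of the library. A library without a read of a gene can hide up to 3 reads, a floor of 3.09 to 3.25 normalized counts in hDISC1AA/+ and of 1.93 to 3.27 in WT. The tissue label fits its markers, since Slc17a7, the vesicular glutamate transporter of cortical excitatory neurons, was at 55502 to 78478 in hDISC1AA/+ and 57359 to 68748 in WT. hDISC1AA/+ replicate 1 and WT replicate 1 stood apart from the rest. In hDISC1AA/+ replicate 1 the mitochondrial genes took 1.94% of reads, against 5.14% to 6.94% in the other 6 libraries, and transcript GC content and length accounted for a share (R2) of 0.357 of its deviations between genes, against 0.0239 to 0.118 in the others. WT replicate 1 was the deepest library. All of the exact intervals below cover counting error only.

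Among the carriers and hormones secreted by the choroid plexus, Ttr encodes transthyretin, which carries thyroid hormone and, with retinol-binding protein, retinol. Its normalized count was 758, 41.5, 15.2 and 22.6 in hDISC1AA/+ replicate 1, the unnumbered library and replicates 3 and 4, against 41.1, 15.3 and 14.2 in WT replicates 1, 2 and 3. A single hDISC1AA/+ library was high, and the other 3 lay in the range of WT or close above it. In bulk tissue, a different number of cells of a type and a different amount of RNA per cell cannot be told apart. The high value rests on 717 reads (exact Poisson 95% interval 665 to 771), the 41.5 of the unnumbered library on 40 reads (28.6 to 54.5), and the 41.1 of WT replicate 1 on 64 reads (49.3 to 81.7). The mean was 209 ± 366 in hDISC1AA/+ (SD, n = 4) and 23.5 ± 15.2 in WT (SD, n = 3). The fitted log2 fold change on the log2(normalized count + 1) scale was 1.44 with a standard error of 1.25, and without hDISC1AA/+ replicate 1 it was 0.21 with a standard error of 0.52.

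The libraries with the most and the least Ttr differed by a factor of 53.5. In hDISC1AA/+ replicate 1 Ttr stood 5.01 log2 units above the mean of the other 6 libraries, and 5.11 after a correction for GC content and transcript length. The summed normalized count of 5 blood genes (haemoglobins and Alas2) was 18093, 11018, 4079 and 7404 in hDISC1AA/+ replicate 1, the unnumbered library and replicates 3 and 4, against 2836, 4290 and 17007 in WT replicates 1, 2 and 3. Of these 5 genes, 3 were highest in hDISC1AA/+ replicate 1, while Hba-a2 was lowest there at 47.6. Their mean deviation from the other libraries was 0.80 log2 units in hDISC1AA/+ replicate 1 and 1.46 in WT replicate 3. Of 10 meningeal genes, 2 were highest in hDISC1AA/+ replicate 1 and 8 in hDISC1AA/+ replicate 3. The collagen gene Col1a1 was at 2314 in hDISC1AA/+ replicate 1, against 398 to 747 in the other hDISC1AA/+ libraries and 304 to 740 in WT. Ogn, another meningeal gene, was lowest there, at 290, against 507 to 973 in the other hDISC1AA/+ libraries and 474 to 736 in WT. The part of blood and of meningeal RNA in the Ttr value was not tested.

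**Figure D1:**
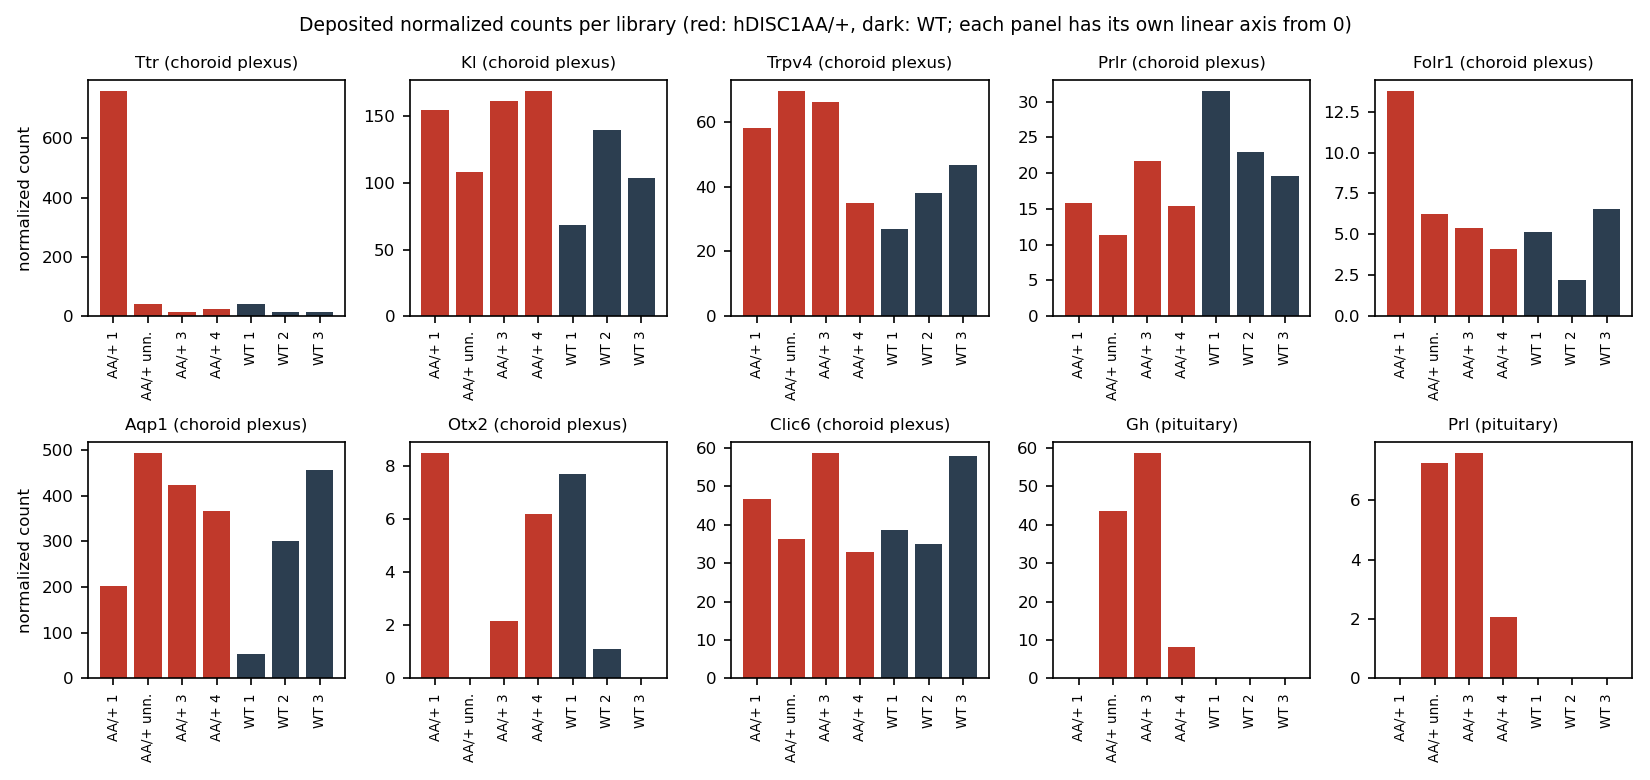
Normalized counts of the 10 genes (1 panel each, linear axis from 0, scale set per panel) in the 4 hDISC1AA/+ libraries (red, left) and the 3 WT libraries (dark, right), 1 bar per library with no error bar. Ttr reaches 758 in hDISC1AA/+ replicate 1 and no more than 41.5 elsewhere, while Gh and Prl have bars in the other 3 hDISC1AA/+ libraries and none in WT.

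Kl (chr5:150952607-150993817 on GRCm38, plus strand) encodes klotho, a co-receptor for the hormone FGF23 whose ectodomain is shed into cerebrospinal fluid. Its normalized count was 154, 108, 161 and 169 in hDISC1AA/+ replicate 1, the unnumbered library and replicates 3 and 4, against 68.0, 140 and 104 in WT replicates 1, 2 and 3. WT replicate 1 was the lowest of all, and the unnumbered hDISC1AA/+ library lay between the other WT values. The log2 fold change was 0.55 (standard error 0.27), and 0.28 without WT replicate 1.

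Of the channels and ion transport genes, Aqp1 (chr6:55336432-55348555 on GRCm38, plus strand) encodes the water channel of the apical membrane of choroid plexus epithelium. It was at 202, 492, 422 and 366 in hDISC1AA/+ replicate 1, the unnumbered library and replicates 3 and 4, against 52.6, 300 and 457 in WT replicates 1, 2 and 3. WT replicate 1 was lowest and hDISC1AA/+ replicate 1, the library with the high Ttr, was next to lowest. The log2 fold change of 0.86 (standard error 0.70) became −0.07 without WT replicate 1, so its direction rests on that library. Without both WT replicate 1 and hDISC1AA/+ replicate 1 it was 0.19.

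Trpv4 (chr5:114622152-114658421 on GRCm38, minus strand) encodes a calcium-permeable channel that responds to cell swelling and warmth. It was at 58.2, 69.5, 66.1 and 35.0 in hDISC1AA/+ replicate 1, the unnumbered library and replicates 3 and 4, against 26.96, 38.2 and 46.9 in WT replicates 1, 2 and 3. Replicate 4 of hDISC1AA/+ lay among the WT values and the other 3 above them. The log2 fold change was 0.59 (standard error 0.32), and 0.38 without WT replicate 1.

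Clic6 (chr16:92485736-92541243 on GRCm38, plus strand) encodes a member of the chloride intracellular channel family. It was at 46.5, 36.3, 58.5 and 32.9 in hDISC1AA/+ replicate 1, the unnumbered library and replicates 3 and 4, against 38.5, 34.9 and 57.8 in WT replicates 1, 2 and 3. It varied least of the 10 genes, by a factor of 1.78 between the extreme libraries, and its log2 fold change was −0.01 (standard error 0.30).

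Of the receptors, Prlr (chr15:10177238-10349180 on GRCm38, plus strand) encodes the prolactin receptor, which the choroid plexus is known to hold in abundance. It was at 15.9, 11.4, 21.7 and 15.4 in hDISC1AA/+ replicate 1, the unnumbered library and replicates 3 and 4, against 31.4, 22.9 and 19.6 in WT replicates 1, 2 and 3. Replicate 3 of hDISC1AA/+ stood above WT replicate 3, and the other hDISC1AA/+ values lay below all WT values. The log2 fold change was −0.59 (standard error 0.33), and −0.35 after the correction for GC content and length.

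Folr1 (chr7:101858331-101870788 on GRCm38, minus strand) encodes the folate receptor through which the choroid plexus passes folate to the brain. It had 13, 6, 5 and 4 reads in hDISC1AA/+ replicate 1, the unnumbered library and replicates 3 and 4 (13.8, 6.23, 5.42 and 4.11 normalized counts), against 8, 2 and 6 reads in WT replicates 1, 2 and 3 (5.13, 2.18 and 6.54). It was highest in the library with the high Ttr, at 13.8 against 6.54 in the next one, WT replicate 3. The gene overlaps Anapc15 on the opposite strand, which averaged 148 normalized counts, and since no strand setting is stated the reads of the pair cannot be told apart.

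Otx2 (chr14:48657677-48673819 on GRCm38, minus strand), the transcription factor of the group, had 8, 0, 2 and 6 reads in hDISC1AA/+ replicate 1, the unnumbered library and replicates 3 and 4 (8.46, 0, 2.17 and 6.17 normalized counts), against 12, 1 and 0 reads in WT replicates 1, 2 and 3 (7.70, 1.09 and 0). Both groups held libraries at or near 0 and libraries near 8. The antisense RNA gene Otx2os1, on the opposite strand, averaged 0.394 normalized counts. Folr1 and Otx2 fell below the limit for testing, set at 10 normalized counts or more in 3 or more libraries, and their log2 fold changes of 0.54 (standard error 0.54) and 0.54 (standard error 0.90) come from a fit without that limit.

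**Figure D2:**
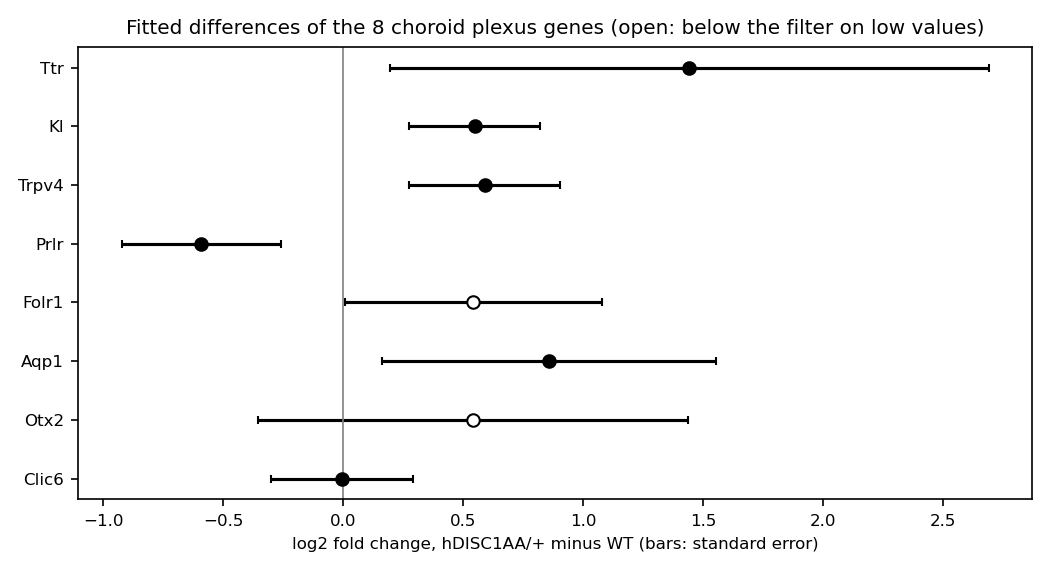
Fitted log2 fold change (hDISC1AA/+ minus WT, on the log2(normalized count + 1) scale) of the 8 choroid plexus genes, as points with bars of 1 standard error; open points are genes below the limit for testing. Ttr has the widest bar, 1.44 with a standard error of 1.25, and Clic6 sits at −0.01.

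Per kilobase of exon, the order of the genes changed with the library. In hDISC1AA/+ replicate 1, Ttr reached 639 normalized counts per kilobase and Aqp1 76.9. In the unnumbered library and replicates 3 and 4 of hDISC1AA/+ the highest of the 8 was Aqp1, with 187, 161 and 139 per kilobase, as in WT replicates 2 and 3 with 114 and 174. In WT replicate 1 Ttr came first with 34.6 and Aqp1 second with 20.0 per kilobase.

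Of the 8 choroid plexus genes, 3 were highest in hDISC1AA/+ replicate 1 (Ttr, Folr1 and Otx2), 2 in the unnumbered library (Aqp1 and Trpv4), and 1 each in hDISC1AA/+ replicate 3 (Clic6), hDISC1AA/+ replicate 4 (Kl) and WT replicate 1 (Prlr). By normalized count Gh and Prl were both highest in hDISC1AA/+ replicate 3, where Prl had 7 reads as in the unnumbered library. Of all tested genes, 18.6% were highest in hDISC1AA/+ replicate 1 and 8.72% in hDISC1AA/+ replicate 3, and nothing is read from the counts of the 10 genes beside these shares. The 28 pairs among them had Spearman correlations over the 7 libraries from −0.85 (Aqp1 with Otx2) to 0.68 (Trpv4 with Aqp1), with a median of 0.04, and 15 of the 28 were positive. Ttr had a positive Spearman correlation with 3 of its 7 partners, between −0.36 and 0.52 in all. Pearson r on the log2 scale gives its high library more weight. For Ttr it was 0.80 with Folr1, 0.53 with Otx2, 0.22 with Trpv4 and 0.10 with Kl. It was −0.01 with Clic6, −0.27 with Prlr and −0.32 with Aqp1. These correlations describe 7 libraries that differ in genotype and depth, and the lowest of them involves Otx2, with at most 12 reads in a library.

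The choroid plexus label was set against 35 other genes known from that epithelium, of which 24 passed the limit for testing. hDISC1AA/+ replicate 1 held the highest value for 5 of the 24 (Lbp, F5, Ace, Msx1 and Spint2), beside the 18.6% of all tested genes. Only Cldn2, a tight junction claudin, differed at least 4-fold between libraries on the log2(normalized count + 1) scale, which is 1 of 24 against 7.64% of all tested genes. It was at 13.8, 10.4, 8.67 and 1.03 in hDISC1AA/+ replicate 1, the unnumbered library and replicates 3 and 4, against 14.1, 10.9 and 14.2 in WT replicates 1, 2 and 3, so its low value was in a library other than the one with the high Ttr. Among the 8 choroid plexus genes themselves, 2 of the 6 that passed the limit differed that much, Ttr and Aqp1, a choice that their selection already reflects.

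Several genes close to Ttr in choroid plexus use were low. Of those named here Kcnj13 passed the limit for testing, and the others were near the detection limit in most or all libraries. Kcnj13, the potassium channel Kir7.1, was at 15.9, 6.23, 26.0 and 9.26 in hDISC1AA/+ replicate 1, the unnumbered library and replicates 3 and 4, against 9.63, 19.6 and 14.2 in WT replicates 1, 2 and 3. Slc4a5, a sodium bicarbonate cotransporter, was at 10.6, 1.04, 4.33 and 1.03 in the same hDISC1AA/+ libraries, against 0, 2.18 and 0 in WT. Slc4a5 shared its highest library with Ttr, and Kcnj13 was higher in hDISC1AA/+ replicate 3. Lmx1a, a roof plate transcription factor, had no read in any library, and the keratin Krt8 had reads in hDISC1AA/+ replicate 3 alone (2.17).

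The summed level of the 35 genes was 16307 to 20104 in hDISC1AA/+ and 17477 to 19853 in WT, most of it from Enpp2 (autotaxin, also made by oligodendrocytes), at 8382 to 10769 in hDISC1AA/+ and 8401 to 10345 in WT. In the comparison of the genotypes with limma, 0 of the 24 passed an adjusted p of 0.05, as did 0 of the 17670 genes tested (0%), and 431 of the 17670 (2.44%) had an unadjusted p under 0.05. edgeR's quasi-likelihood test and DESeq2 on the recovered reads also called 0, with 458 and 510 genes at an unadjusted p under 0.05. The 24 had 13 positive and 11 negative log2 fold changes with a median of 0.01, beside a median of −0.01 over all tested genes, and 2 of the 24 had an unadjusted p under 0.05. These were the serotonin receptor gene Htr2c, at −0.74 (standard error 0.32), and the cation channel gene Trpm3, at −0.52 (standard error 0.21), both highest in WT replicate 1. The count of 2 was 0 without WT replicate 1, without WT replicate 3, without hDISC1AA/+ replicate 1, without the unnumbered library, and after the correction for GC content and length. It was 1 without hDISC1AA/+ replicate 3 and with scaling by library totals, and 2 without hDISC1AA/+ replicate 4. With edgeR, with DESeq2 and without WT replicate 2 it was 3.

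**Figure D3:**
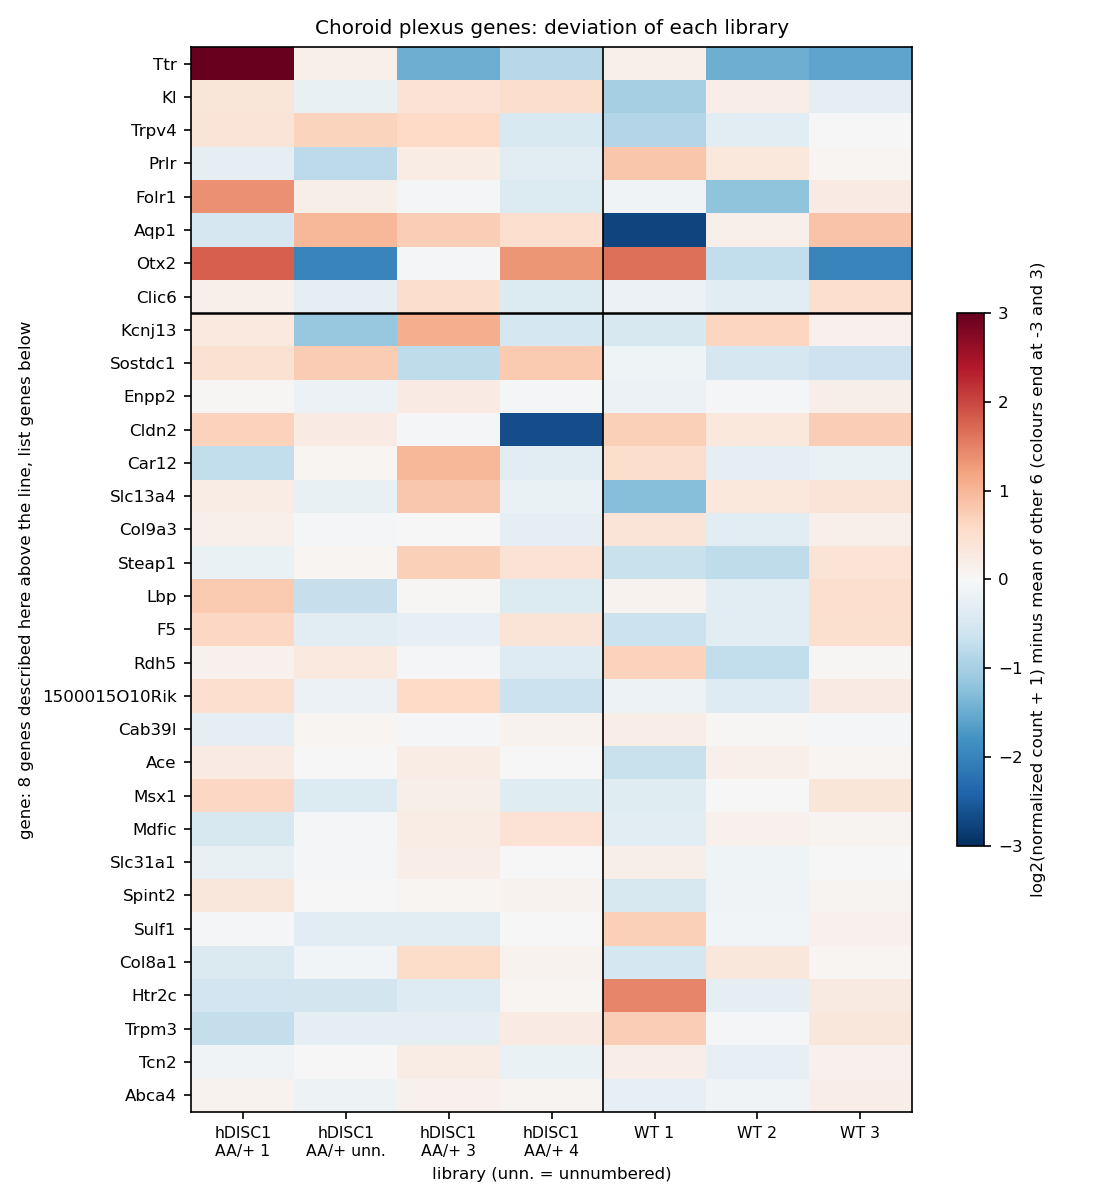
Difference of each library from the mean of the other 6, in log2(normalized count + 1), for the 8 choroid plexus genes described here (above the black line) and the 24 tested genes of the wider list (below it), with hDISC1AA/+ libraries left of the vertical line and WT right of it; red is higher and blue lower, and colours end at −3 and 3. The dark red cell of Ttr in hDISC1AA/+ replicate 1 stands at 5.01, and Aqp1 in WT replicate 1 is dark blue at −2.74.

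None of the tested genes of ciliated ependymal cells differed 4-fold between libraries (0 of 8), beside 7.64% of all tested genes, and nothing is read from this count. Of 15 genes of these cells, which line the ventricles, 8 were tested, with 6 positive and 2 negative log2 fold changes, a median of 0.17 and 0 called by limma. Their summed level was 336 to 400 in hDISC1AA/+ and 323 to 357 in WT. Foxj1, the regulator of motile cilia, was at 148, 95.5, 106 and 98.8 in hDISC1AA/+ replicate 1, the unnumbered library and replicates 3 and 4, against 101, 98.2 and 114 in WT replicates 1, 2 and 3. It was highest where Ttr was highest, but by far less.

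All 10 meningeal genes were tested, with 9 positive and 1 negative log2 fold changes, a median of 0.31, 0 called and 1 at an unadjusted p under 0.05. On average WT replicate 1 lay 0.82 log2 units below the mean of the other libraries for these genes, and hDISC1AA/+ replicate 3 lay 0.58 above it. Their summed level was 35527 to 56831 in hDISC1AA/+ and 30004 to 46725 in WT. The library lowest in meningeal genes was thus also the lowest in Kl, Trpv4 and Aqp1, and the part of meningeal tissue in those values was not tested.

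Gh (chr11:106300271-106301865 on GRCm38, minus strand) encodes growth hormone, and Prl (chr13:27057570-27065205 on GRCm38, plus strand) encodes prolactin. The normalized count of Gh was 0, 43.6, 58.5 and 8.23 in hDISC1AA/+ replicate 1, the unnumbered library and replicates 3 and 4, against 0, 0 and 0 in WT replicates 1, 2 and 3. The reads behind these values were 42 in the unnumbered library (exact Poisson 95% interval 30.3 to 56.8), 54 in replicate 3 (40.6 to 70.5) and 8 in replicate 4 (3.45 to 15.8). WT replicate 1, the deepest library, had none. The groups overlapped only through hDISC1AA/+ replicate 1, which was at 0 like the WT libraries.

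Gh averaged 27.6 ± 28.0 in hDISC1AA/+ (SD, n = 4). That mean is 9.77 times the mean WT floor of 2.82 that 3 reads in each WT library would give. The ratio allows for counting error in WT only and leaves out the spread between hDISC1AA/+ libraries, so it sets no bound on a genotype difference. Prl had 0, 7, 7 and 2 reads in hDISC1AA/+ replicate 1, the unnumbered library and replicates 3 and 4 (0, 7.27, 7.58 and 2.06 normalized counts), and no read in WT replicates 1, 2 and 3. Its libraries with reads were those of Gh. By normalized count its order of libraries was also that of Gh, but the unnumbered library and replicate 3 tie at 7 reads. Their order rests on the size factors. An antisense gene, Gm47888, overlaps Prl, and reads from its strand cannot be told apart. Both genes missed the limit for testing, since neither had a value of 10 in 3 libraries, and no p-value or fitted fold change is given for them.

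Growth hormone and prolactin reads kept a like proportion in the 3 libraries that had them. Gh took 42 of the 49 reads of the pair in the unnumbered library, or 85.7% (exact Clopper-Pearson 95% interval 72.8% to 94.1%). It took 54 of 61 in hDISC1AA/+ replicate 3, or 88.5% (77.8% to 95.3%), and 8 of 10 in hDISC1AA/+ replicate 4, or 80.0% (44.4% to 97.5%). The shares thus differed by less than their counting intervals. Per kilobase of exon Gh stood at 50.6, 67.9 and 9.55 in these libraries, where Ttr stood at 35.0, 12.8 and 19.1.

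The wider pituitary list holds 16 other genes, of which 5 had no read in any library. Among these were Lhb and Fshb, the beta chains of the gonadotrophins, and the transcription factor gene Six6. Cga, the alpha chain that the gonadotrophins share with thyrotrophin, was at 1.04 in the unnumbered hDISC1AA/+ library and at 0 in all others. Pou1f1, whose product binds the Gh and Prl promoters, was at 0, 4.15, 0 and 4.11 in hDISC1AA/+ replicate 1, the unnumbered library and replicates 3 and 4, against 2.57, 5.46 and 3.27 in WT replicates 1, 2 and 3. It had no read in the library with the most Gh. Its values lie near the floor of 3 reads and it was not tested, so whether it followed Gh cannot be told.

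Pomc encodes the precursor of ACTH and melanocyte-stimulating hormones. It was at 41.3, 725, 23.8 and 27.8 in hDISC1AA/+ replicate 1, the unnumbered library and replicates 3 and 4, against 64.2, 38.2 and 28.3 in WT replicates 1, 2 and 3. The unnumbered library stood 4.32 log2 units above the mean of the other 6, and without it the hDISC1AA/+ mean was 31.0 ± 9.13 (SD, n = 3), against 43.6 ± 18.5 in WT (SD, n = 3). Replicate 3, with the most Gh, had the least Pomc. Tbx19, the corticotroph factor, was at 0, 7.27, 2.17 and 1.03 in hDISC1AA/+ replicate 1, the unnumbered library and replicates 3 and 4, against 2.57, 1.09 and 0 in WT, and was also highest in the unnumbered library.

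Lhx3, a transcription factor of the early pituitary, was at 2.12, 4.15, 9.75 and 3.09 in hDISC1AA/+ replicate 1, the unnumbered library and replicates 3 and 4, against 0, 1.09 and 1.09 in WT replicates 1, 2 and 3. All 4 hDISC1AA/+ values were above the WT values and the highest was in the library with the most Gh. A separation of the groups was shown by 5.04% of the 17670 tested genes. Most values of Lhx3 lie near the floor of 3 reads, the gene was not tested, and no genotype difference is read from it. Of the 3 genes that were tested, Pomc, Tshb (the thyrotrophin beta chain) and Trhr (the receptor for thyrotrophin-releasing hormone), 1 had a positive and 2 had a negative log2 fold change, with a median of −0.11 and 0 called by limma.

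**Figure D4:**
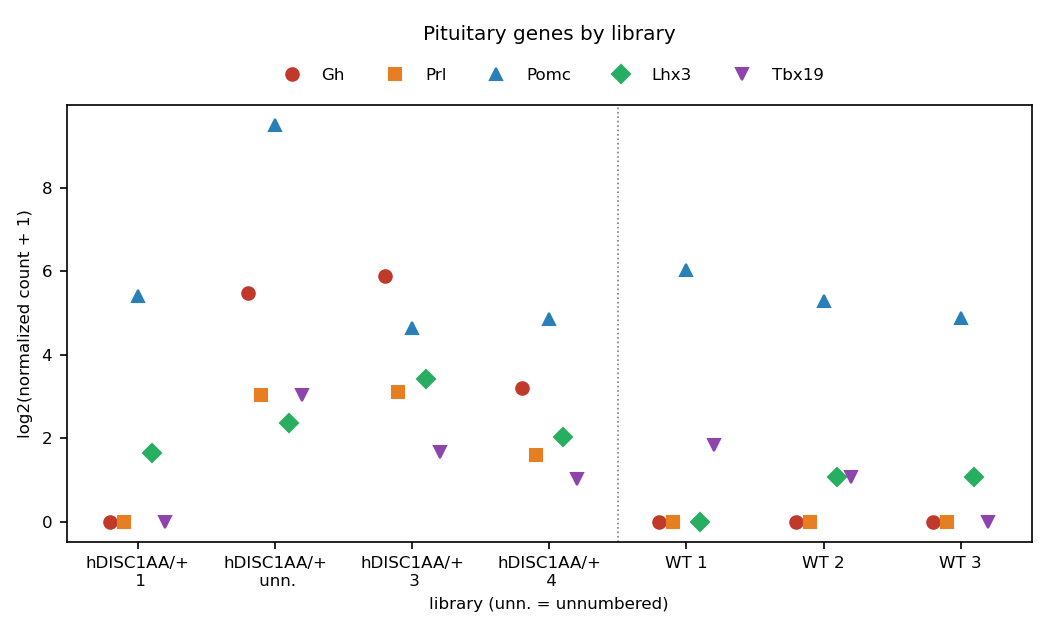
Gh, Prl, Pomc, Lhx3 and Tbx19 in each library, as log2(normalized count + 1), with hDISC1AA/+ libraries left of the dotted line and WT right of it, 1 point per gene and library. Gh and Prl are above 0 in 3 hDISC1AA/+ libraries and at 0 in the other 4 libraries, while Pomc is present in all 7 and reaches 725 normalized counts in the unnumbered library.

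Hypothalamic genes lie next to the pituitary in anatomy, and their summed level over 10 genes was 212, 480, 445 and 547 in hDISC1AA/+ replicate 1, the unnumbered library and replicates 3 and 4, against 176, 404 and 403 in WT replicates 1, 2 and 3. Most of the sum is Trh, at 134, 395, 354 and 446 in those hDISC1AA/+ libraries, against 129, 319 and 312 in WT. Without Trh the sums were 77.2, 84.1, 91.0 and 101 in the same hDISC1AA/+ libraries, against 47.5, 85.1 and 91.5 in WT. The order of the sums with Trh, in which the 3 libraries with Gh came first, thus rests on Trh. Ghrh, the releasing hormone of growth hormone, stayed at 1.03 to 5.42 in hDISC1AA/+ and 1.09 to 3.27 in WT. All 10 hypothalamic genes had a read in at least 1 library, and the 3 tested ones had positive log2 fold changes (median 0.40) with 0 called. Among the untested ones, Avp was at 4.15 to 8.23 in hDISC1AA/+ and 0 to 2.57 in WT. Nkx2-1 was at 2.06 to 3.11 in hDISC1AA/+ and 3.27 to 7.64 in WT, Pmch was at 1.04 to 3.09 in hDISC1AA/+ and 3.21 to 3.27 in WT, and Sim1 had no read in hDISC1AA/+ and 0 to 1.28 normalized counts in WT. The groups did not overlap in Avp, Nkx2-1 and Pmch, a separation shown by 5.04% of the 17670 tested genes. Most values of these untested genes lie near or below the floor of 3 reads, and no genotype difference is read from them. The part of hypothalamic RNA in the Gh values was not tested.

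The receptors and signalling genes downstream of growth hormone and prolactin were all measured. Of 11 genes tested, 6 had a positive and 5 a negative log2 fold change with a median of 0.02, and 0 were called. Igf1, the growth factor that growth hormone induces in liver, was at 170, 633, 673 and 672 in hDISC1AA/+ replicate 1, the unnumbered library and replicates 3 and 4, against 601, 641 and 641 in WT replicates 1, 2 and 3. The libraries with Gh reads were near the WT libraries, and the low one was the library that also stood apart in GC content, where the deviation of Igf1 was −1.91 log2 units before and −0.76 after the correction for GC content and length. Ghr, the growth hormone receptor gene, was at 228, 527, 465 and 456 in the same order, against 356, 394 and 435 in WT. Socs2, an inhibitor of growth hormone signalling, was at 784 to 849 in hDISC1AA/+ and 688 to 895 in WT.

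Of 5 partners of klotho, 2 had a positive and 3 a negative log2 fold change (median −0.11) and 0 were called. Fgfr1, the receptor with which klotho binds FGF23, was at 1971 to 2293 in hDISC1AA/+ and 2151 to 2502 in WT. Of 10 genes for thyroid hormone, retinol and folate transport, 5 were positive and 5 negative (median 0.00) and 0 were called. Rbp4, whose protein travels with transthyretin, was at 389, 234, 263 and 228 in hDISC1AA/+ replicate 1, the unnumbered library and replicates 3 and 4, against 442, 212 and 208 in WT replicates 1, 2 and 3. Its 2 high libraries were hDISC1AA/+ replicate 1 and WT replicate 1. Ttr was also highest among the WT libraries in WT replicate 1, at 41.1, far below its 758 in hDISC1AA/+ replicate 1. Over these 3 lists together 0 of 26 tested genes were called.

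Genes outside the 10 with the most similar course over the 7 libraries were sought by Pearson correlation of log2(normalized count + 1) among all tested genes. For Ttr the 5 closest were Kctd2, Usp30, Trappc3, Rnf220 and Rpusd1, with r of 0.979 to 0.994, but their highest and lowest libraries differed by factors of 1.22 to 1.71, against 53.5 for Ttr. For the mean of Gh and Prl the 10 closest had r of 0.901 to 0.976 and factors of at most 3.38, led by Slc22a21, Lgals9 and Gm23136. For the mean of the 8 choroid plexus genes the 10 closest had r of 0.945 to 0.994, led by Tspan4, Ciart and S100a11, and factors of 1.18 to 1.92. None of these 25 genes is in any of the lists used here, and r over 7 libraries from a search of all tested genes is a ranking with no test.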

How the data were processed

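RNA sequencing covered 7 libraries of mouse prefrontal cortex, 4 hDISC1AA/+ and 3 WT. Per the submitters' processing notes, the tools named were Trimmomatic 0.39, HISAT2 2.1.0, HTSeq 0.6.1 and DESeq2 1.26.0, with the build mm10 and no role given. Not given in the sources used here are the annotation, the strand setting of the counting and how multi-mapping reads were handled. The values deposited by the authors are a signal per gene and library: 100% of them were whole multiples of 1 step per library within 0.01 reads, so the authors' values equal gene counts divided by 1 size factor. Dividing by the step gave back the reads (33512557 to 63845254 per library). All 7 columns were used. The number of 1 column matches no title, and it was placed in hDISC1AA/+ by its ending. No 2 libraries were copies (chi-square per degree of freedom 10.7 to 163 between pairs).

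Of 43626 identifiers, 42459 matched a symbol in GENCODE M21 (GRCm38), and 3 genes on broken lines were left out. The 17670 genes with values of 10 or more in 3 or more libraries were fitted with limma 3.58.1 (trend, robust) on log2(value + 1), two-sided, with Benjamini-Hochberg adjustment over all of them and a threshold of 0.05. This scale understates changes of low genes. Because the unit is not a raw count, edgeR 4.0.16 and DESeq2 1.42.0 on the recovered reads served as alternatives, and both called 0 genes. The fit was checked on simulated data. Other alternatives were pseudocounts of 0.5 and 10, other filters and scalings, each library left out and, chosen after seeing the data, a correction for GC content and length. The 10 genes, the lists and the tests were chosen with earlier results of these data known. All 10 genes were named. From the lists, genes were named by a rule of level (up to 6 with the highest mean) or of a 4-fold spread, and for pattern genes by Pearson r. Kcnj13, Slc4a5, Lmx1a, Krt8, Cga, Pou1f1, Tbx19, Lhx3, Ghrh, Avp, Nkx2-1, Pmch, Sim1, the list genes highest in 1 library and the partners of the hormones outside that rule were chosen after their values were seen.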

Additional observations from a re-analysis of the deposited data

Results flagged for a closer look

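Among the 136 genes of the descriptions above that varied in hDISC1AA/+, 12 had 1 hDISC1AA/+ library far from the other 3. In each, the gap to the nearest library was above the 95% critical value of Dixon's ratio. Chance flags about 5% of genes where values are normally distributed. For Krt8, Otx2os1, Tmem212 and Cga the other 3 libraries were all at 0. Their flag was then fixed by a single library having reads, and the 5% does not apply to them. Ttr is among the 12 but had been selected on these same values, so its flag is a description and not a test. The other genes were chosen with earlier results of these data known, and nothing is read from the count of 12 beside the 5%. The values below are normalized counts, with no explanation weighed.

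In hDISC1AA/+ replicate 1, Ttr was at 758, against 15.2 to 41.5 in the other hDISC1AA/+ libraries. The same library had the highest Slc17a7 (78478, the others 55502 to 58059) and Drd2, a dopamine receptor gene (29.6, the others 16.6 to 18.5). It had the lowest Zic1, a transcription factor gene of septum and meninges (612, the others 1290 to 1397), and the lowest Igf1 (170, the others 633 to 673). Otx2os1, antisense to Otx2, was at 2.12 there and Tmem212, an ependymal gene, at 3.17, both at 0 in the other 3 and both within 3 reads.

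In the unnumbered hDISC1AA/+ library, Pomc was at 725, against 23.8 to 41.3 in the other hDISC1AA/+ libraries. Abca4 was lowest there at 120 (the others 139 to 142), Nkx2-1 was at 3.11 (the others up to 2.17) and Cga at 1.04 (the others 0). In hDISC1AA/+ replicate 3, Krt8 was at 2.17 and at 0 in the others. The flagged values of Nkx2-1, Cga and Krt8 lay at or below the floor of 3 reads.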

How the results depend on the processing

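No gene was called under any of the 17 alternatives run, nor in the choroid plexus, ependymal, pituitary or partner lists, while 218 to 909 genes had an unadjusted p under 0.05. Of the 24 tested choroid plexus genes outside the 8, 5 were highest in hDISC1AA/+ replicate 1. This count was 9 without the filter on low values (34 genes), 9 with scaling by library totals, and 5 to 6 when other single libraries were left out; it has no value without that replicate. The share of all tested genes highest in that replicate was taken in the main setting only (18.6%). The counts of 9 therefore have no background beside them, and nothing is read from them. The count that differed at least 4-fold between libraries was 1. It was 6 without the filter, 0 with a pseudocount of 10, 0 with a filter of 50, and 0 to 1 when single libraries were left out, with 0 without hDISC1AA/+ replicate 4, the library in which Cldn2 is low. The share of all tested genes that differed that much, 7.64%, was likewise taken in the main setting only. The log2 fold change of Ttr was 3.10 with edgeR and 3.15 with DESeq2 and ranged from 0.21 to 2.07 when single libraries were left out. That of Clic6 ranged from −0.16 to 0.21, changing sign. Low depth limits Folr1, Otx2, Gh and Prl, where a library without a read allows up to 3. No paired analysis was possible because replicate numbers were given in record order, which pairs no samples, and 1 hDISC1AA/+ column carries none.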
